A study of Homo sapiens with 6 samples.

Results

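The 30 lysosome genes described here encode soluble hydrolases, membrane proteins and proton pump subunits of the lysosome, and all 30 were found by symbol among the 23368 genes of the count table. They were chosen by function from a list of symbols, with earlier results of these data known. RNA was sequenced from 1205Lu cells, an established human line of metastatic melanoma, in 6 libraries. A group of 3 came from flasks transfected with pCMV6-SOX10, a plasmid for the neural crest transcription factor SOX10, and a group of 3 from flasks transfected with the empty plasmid pCMV6. All flasks received 7.8 µg of plasmid DNA with the same reagent and were harvested 24 h later, so the controls share the transfection itself, and expression from the plasmid was transient. The series calls the 3 flasks of a group biological replicates and states no other grouping. The bulk RNA of a flask mixes transfected with untransfected cells, and a change in a share of the cells cannot be told apart from a smaller change in all of them.

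Lysosomes are acidic organelles that break down proteins, glycans and lipids delivered by endocytosis and autophagy. A vacuolar ATPase pumps protons into them, hydrolases work in the acid lumen, and heavily glycosylated proteins such as LAMP1 and LAMP2 line their membrane. The transcription factors TFEB, TFE3 and MITF bind a short palindrome, the CLEAR element, near the start of many lysosome genes and raise their expression together when nutrients are scarce or lysosomes are stressed. Pigment cells build melanosomes as lysosome-related organelles, and SOX10 is known to activate MITF in melanocytes.

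The palindrome TCACGTGA, read on both strands at once since it is its own reverse complement, was searched in RefSeq windows from 250 bases before to 50 after annotated gene starts (build GRCh38.p14). Of the 21 lysosome genes with a window, 5 held it, or 23.8%, against 1.18% of all 27305 genes with a window. Of 69 other lysosomal hydrolases, membrane proteins and pump subunits with a window, 7 held it, or 10.1%. The 5 genes were ATP6V0D1, CTSA, GAA, LAMP1 and MCOLN1. The E-box CACGTG, which lies inside the palindrome, was in 8 of the 21, with CD63, CTSD and CTSF beside these genes, against 8.78% of all genes. In the 69 other lysosome genes the E-box was in 15, or 21.7%. ASAH1, ATP6V1A, ATP6V1B2, ATP6V1H, CTSB, CTSK, HEXA, LAMP2 and PSAP had no window in the table. The stretches below show the palindrome in capitals in the 5 genes that hold it, 5′ to 3′ on the gene's strand. Only exact matches were counted. A match in letters is no evidence of binding in these cells.

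ATP6V0D1, chr16:67481180-67481247, minus strand: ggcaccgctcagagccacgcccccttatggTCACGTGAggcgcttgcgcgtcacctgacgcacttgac
CTSA, chr20:45891279-45891334, plus strand: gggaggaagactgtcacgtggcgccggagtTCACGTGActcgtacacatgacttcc
GAA, chr17:80101474-80101541, plus strand: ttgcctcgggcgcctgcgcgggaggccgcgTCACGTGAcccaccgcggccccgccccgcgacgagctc
LAMP1, chr13:113297180-113297238, plus strand: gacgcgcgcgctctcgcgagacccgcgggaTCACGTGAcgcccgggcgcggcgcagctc
MCOLN1, chr19:7522552-7522619, plus strand: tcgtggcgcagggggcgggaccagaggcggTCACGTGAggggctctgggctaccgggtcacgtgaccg

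The palindrome starts 60 bases before the gene start in ATP6V0D1, 26 before it in CTSA, 77 in GAA, 29 in LAMP1 and 42 in MCOLN1. GAA, LAMP1 and MCOLN1 each hold a further copy in the same window. In the MCOLN1 stretch it stands in lower case near the 3′ end.

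Reads assigned to genes numbered 2544420 to 4167393 in the SOX10 libraries and 867917 to 2066520 in the controls, so that every SOX10 library was deeper than every control. A level is given in CPM, the reads of a gene per 1e6 reads of its library. The limit that 0 reads leave is 3 reads, worth 0.72 to 3.46 CPM, for counting error only. CPM were scaled with TMM, edgeR's trimmed mean of M-values. SOX10 itself, the targeted gene, stood at 21.7, 18.7 and 34.6 CPM in SOX10 replicates 1 to 3 and at 16.6, 20.8 and 21.5 CPM in the controls. The groups overlapped (log2 fold change 0.35, SE 0.27, edgeR adjusted p = 0.927). The labels could not be checked from it, and "SOX10 libraries" means libraries labelled so. Reads outside genes, per 100 reads assigned to genes, were 93.5 in SOX10 replicate 1 and 97.0 in control replicate 3, and 121 to 135 in the other 4 libraries.

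For melanoma and melanocytes, 10 markers summed to 1024 to 1213 CPM per library. S100A1, S100B and ERBB3 made up most of this, while the pigment cell genes PMEL, MLANA, TYR, DCT and TYRP1 were all too rare for a test. The 13 markers of macrophages and other leukocytes, cells of which macrophages are rich in lysosomes, summed to 8.30 to 9.20 CPM in the SOX10 libraries and 5.36 to 12.2 CPM in the controls. SPI1 and TYROBP had 1 read each over all 6 libraries and CD3E had 0. The 10 markers of keratinocytes and fibroblasts summed to 107 to 177 CPM, nearly all of it PDGFRA.

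The lysosome genes as a group were abundant in both kinds of library. The median level of the 28 tested was 86.7 CPM, beside 29.9 CPM for all tested genes. Single members differed widely, from 2.73 CPM for CTSK to 830 CPM for PSAP (means of the 6 libraries). Together the 30 genes took 0.719%, 0.688% and 0.605% of assigned reads in SOX10 replicates 1 to 3. In control replicates 1 to 3 they took 0.669%, 0.571% and 0.699%. The groups overlapped, at 0.67 ± 0.059% against 0.646 ± 0.067% (SD, n = 3 each). A comparison between genes has to allow for length, and was made on CPM per kilobase of transcript (mean of the 6 libraries, principal transcript of GENCODE release 29). On that scale NPC2, which hands cholesterol to NPC1, ranked first at 764, ahead of the carboxypeptidase CTSZ at 479.7 and PSAP, the precursor of the saposins that present lipids to hydrolases, at 289. CTSD, the main aspartic protease, followed at 280.4, then the tetraspanin CD63 at 215, CD68 at 212 and LAMP2 at 197. The lowest were MCOLN1, the calcium channel of the lysosomal membrane, at 1.52, and CTSK, the collagen-degrading cathepsin of osteoclasts, at 1.61. With coding length in place of transcript length the first, the second and the last 3 places were the same, and no gene moved by more than 6 places.

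**Figure D1:**
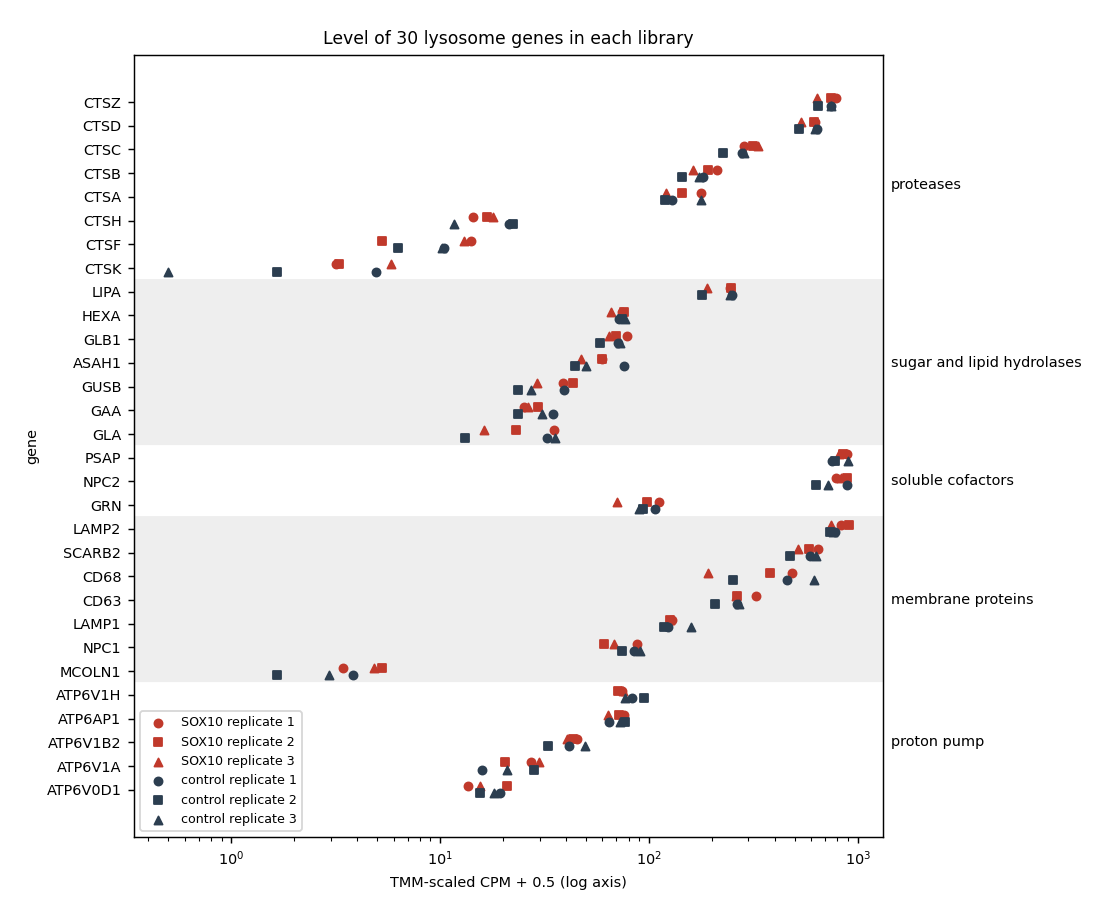
Level of each lysosome gene in each library, as TMM-scaled CPM + 0.5 on a log axis, with genes in rows by role, SOX10 libraries in red, controls in dark blue and 1 symbol per replicate number. Levels run from 0 CPM (CTSK in control replicate 3) to 910.2 CPM (LAMP2 in SOX10 replicate 2), and red and dark symbols are mixed in nearly all rows.

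No lysosome gene passed the comparison of SOX10 with control libraries. Of the 30 genes 28 had enough reads for edgeR's quasi-likelihood test, and 0 were called at an adjusted p under 0.05, where 0.112% of all 10678 tested genes were called. DESeq2 and limma-voom called 0 as well. At an unadjusted p under 0.05 edgeR found 0 of the 28, beside 6.23% of all tested genes. The log2 fold changes of the 28 tested genes were split evenly, 14 above and 14 below 0. Their median was 0.0064, beside 0.0076 for all tested genes. They ran from -0.36 for CD68 to 0.32 for GUSB. Single libraries moved both: CD68 had -0.67 without SOX10 replicate 1 and -0.010 without control replicate 3. GUSB had 0.20 without SOX10 replicate 2 and 0.52 without control replicate 1. Depth limits what can be said of the rarer members, but for most the interval was narrow: in 20 of 28 the 95% confidence interval of the fold lay between 0.667 and 1.5. Only for CTSF did it reach above 2-fold, to 2.18, and for none did it reach below 0.553. Leaving out any single library also gave 0 calls among them.

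**Figure D2:**
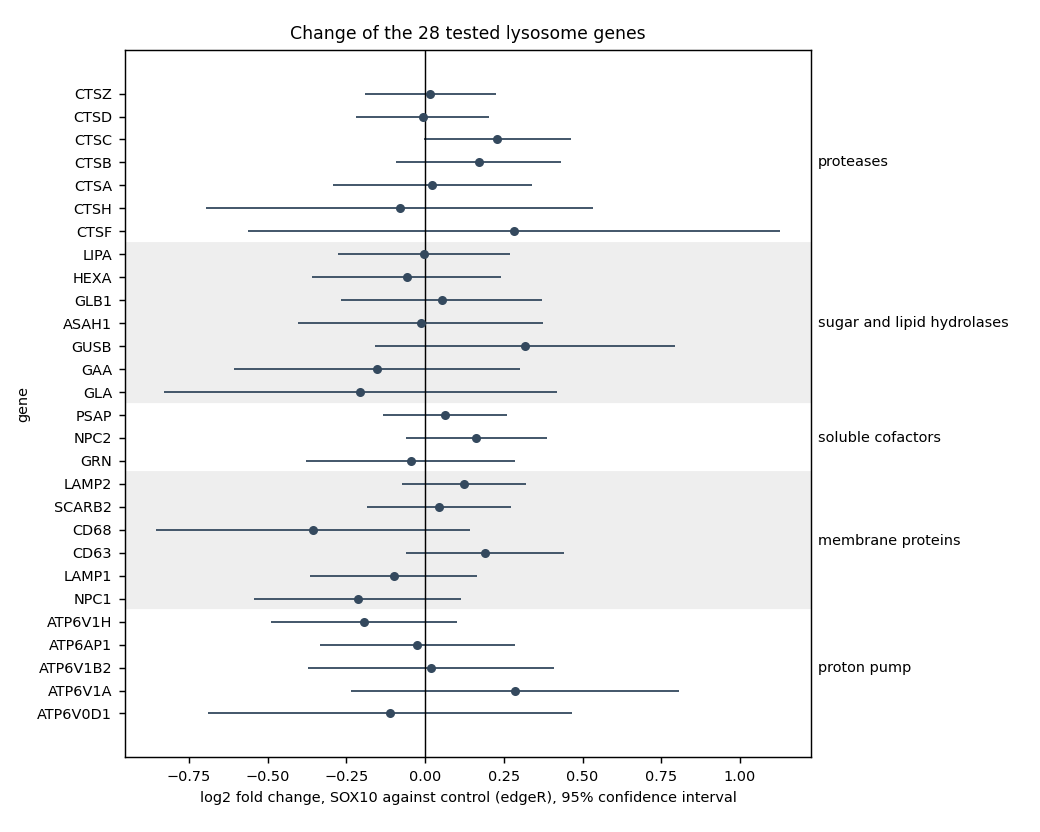
Log2 fold change of SOX10 against control libraries (edgeR) for the 28 tested lysosome genes, in rows by role, with bars for the 95% confidence interval. All 28 bars cross 0, and the widest belongs to CTSF.

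Among the proteases, CTSC, the dipeptidyl peptidase that activates granule serine proteases, had the smallest p of all 28. It stood at 284, 314 and 331 CPM in the SOX10 libraries and 278, 226 and 284 CPM in the controls. The lowest SOX10 library and the highest control library were at nearly the same level. The log2 fold change was 0.23 (SE 0.11, edgeR adjusted p = 0.815). CTSZ, the most abundant protease per length, stood at 786, 742 and 638 CPM against 747, 646 and 744 CPM. The groups covered overlapping ranges, and the log2 fold change was 0.017 (SE 0.10). CTSA, the protective protein that stabilises beta-galactosidase and neuraminidase, stood at 178, 144 and 121 CPM against 129, 119 and 177 CPM. One library of each group was high and the others low, which left a log2 fold change of 0.023 (SE 0.15). Those were SOX10 replicate 1 and control replicate 3, the libraries with the fewest reads outside genes. In GENCODE release 29 CTSA shares 10.4% of its exonic bases with NEURL2 and 8.55% with PLTP on the opposite strand; whether counting used strand is not stated in these sources. The cysteine protease CTSB had 0.17 (SE 0.13) and CTSD -0.008 (SE 0.10). A protein-coding model of GENCODE release 29, AC068580.4, covers 61.4% of the exonic bases of CTSD on the same strand, so its count and its rank per length are uncertain. CTSF and CTSH, both cysteine cathepsins, were scarce, at 4.79 to 13.7 CPM and 11.2 to 21.9 CPM, and had log2 fold changes of 0.28 (SE 0.41) and -0.081 (SE 0.30). CTSK had 10, 7 and 22 reads in the SOX10 group and 4, 1 and 0 in the controls, which left it out of the test. The 0 in control replicate 3 allows up to 1.45 CPM, and the other 5 libraries stood at 1.15 to 5.33 CPM. Fitted with no filter on low counts, CTSK had a log2 fold change of 1.35 and an edgeR adjusted p of 0.921.

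Of the enzymes that digest sugars and lipids, GUSB, the beta-glucuronidase of glycosaminoglycan breakdown, came closest to the threshold. It stood at 38.3, 43.1 and 28.6 CPM against 38.7, 23.1 and 26.8 CPM. Control replicate 1 lay among the SOX10 libraries, and the log2 fold change was 0.32 (SE 0.23, edgeR adjusted p = 0.917). LIPA, the acid lipase that frees cholesterol from lipoproteins, was the most abundant of these per length, at 244, 247 and 189 CPM against 251, 179.9 and 245 CPM. Within each group 1 library, SOX10 replicate 3 and control replicate 2, lay well below the other pair, and the log2 fold change was -0.004 (SE 0.13). GAA, the acid glucosidase deficient in Pompe disease, was the least abundant per length, at 24.6, 29.1 and 25.9 CPM against 34.3, 23.1 and 30.2 CPM. These rested on 20 to 107 reads per library, and the log2 fold change was -0.15 (SE 0.22). GLA, the alpha-galactosidase deficient in Fabry disease, stood at 34.5, 22.7 and 15.7 CPM against 32.1, 12.7 and 35.1 CPM. The highest library was 2.19 times the lowest in the SOX10 group and 2.77 times in the controls, and the log2 fold change was -0.21 (SE 0.30). Log2 fold changes of the other enzymes were small. GLB1, the beta-galactosidase used to stain senescent cells, had 0.052 (SE 0.15), HEXA, the beta-hexosaminidase subunit mutated in Tay-Sachs disease, -0.059 (SE 0.14), and the acid ceramidase ASAH1 -0.015 (SE 0.19).

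Of the 3 soluble proteins that assist the enzymes, NPC2 had the smallest p. This cholesterol carrier stood at 785, 892 and 828 CPM against 889, 632 and 719 CPM. Control replicate 1 was nearly as high as the highest SOX10 library, and the log2 fold change was 0.16 (SE 0.11, edgeR adjusted p = 0.915). GRN, which encodes progranulin and was the least abundant of the 3 per length, stood at 112, 97.3 and 70.0 CPM against 106, 93.4 and 89.7 CPM. The 3 controls lay inside the range of the SOX10 libraries, and the log2 fold change was -0.045 (SE 0.16). PSAP had 0.063 (SE 0.095), the 95% confidence interval of its fold running from 0.911 to 1.198.

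Among the membrane proteins, CD63, a tetraspanin of late endosomes, melanosomes and exosomes, had the smallest p and the highest level per transcript length. Per kilobase of coding length it had 371, behind LAMP2 at 645, SCARB2 at 400 and CD68 at 375. CD63 stood at 324, 264 and 262 CPM against 263, 206 and 271 CPM. The groups overlapped, and the log2 fold change was 0.19 (SE 0.12, edgeR adjusted p = 0.899). CD68, a LAMP family protein used as a macrophage marker, had the widest spread of the abundant members. It stood at 485, 382 and 192 CPM in SOX10 replicates 1 to 3 and at 457, 253 and 621 CPM in the controls. They differed 2.53-fold within the SOX10 group and 2.46-fold within the controls, and the log2 fold change of -0.36 (SE 0.24, adjusted p = 0.915 by edgeR) was smaller than either spread. The library with the most CD68, control replicate 3, had the least summed level of the macrophage and leukocyte markers, 5.36 CPM. That sum rested on 11 reads, beside 11 and 6 reads in control replicates 1 and 2, so its order among the controls is uncertain. Whether leukocytes contributed to the CD68 counts was not tested. GENCODE release 29 has a processed transcript, AC016876.2, that covers 95.3% of the exonic bases of CD68 on the same strand, so its counts are uncertain to the extent that the counting used such a model. NPC1, the cholesterol exporter, had -0.21 (SE 0.16), LAMP1 -0.10 (SE 0.13), LAMP2 0.12 (SE 0.095) and SCARB2, the receptor that carries glucocerebrosidase to the lysosome, 0.044 (SE 0.11). MCOLN1 had 11, 12 and 18 against 3, 1 and 5 reads, or 2.95, 4.79 and 4.36 against 3.32, 1.15 and 2.44 CPM. It was not tested, and the groups overlapped. Fitted with no filter on low counts, MCOLN1 had a log2 fold change of 0.78 and an edgeR adjusted p of 0.921.

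The proton pump held the only lysosome gene whose groups did not overlap, 1 of the 28 tested, where this held for 11.8% of all tested genes. ATP6V1H, the regulatory H subunit of the cytosolic V1 sector, stood at 73.6, 70.6 and 74.4 CPM with SOX10 and 82.9, 94.6 and 76.1 CPM in the controls. The nearest libraries of the groups were 1.71 CPM apart, and the log2 fold change was -0.19 (SE 0.14, edgeR adjusted p = 0.922). ATP6V1A, the catalytic subunit and the scarcest of the 5 per length, stood at 26.8, 19.9 and 29.3 CPM against 15.5, 27.7 and 20.5 CPM. Its groups covered each other, and the log2 fold change was 0.28 (SE 0.25). The B2 subunit ATP6V1B2, which shares the catalytic ring, had 0.018 (SE 0.19), the membrane sector subunit ATP6V0D1 -0.11 (SE 0.28) and the accessory protein ATP6AP1 -0.024 (SE 0.15). The 4 tested genes with the palindrome, shown above, had log2 fold changes of -0.15 (GAA), -0.11 (ATP6V0D1), -0.10 (LAMP1) and 0.023 (CTSA).

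The libraries of a group differed from each other in a way that many of the lysosome genes shared. SOX10 replicate 3 was the lowest of its group in 19 of the 28 tested members, or 67.9%, beside 33.8% of all tested genes. Control replicate 2 was the lowest of its group in 21 of the 28, or 75%, beside 35.2%. Both held at once for 15 of the 28, or 53.6%, while this was so for 14.2% of all tested genes. At the other end, SOX10 replicate 1 and control replicate 3 were together the highest of their groups in 10 of the 28, against 14.3% of all tested genes. These libraries were singled out after their values were seen, so the shares are a description. At the median the lysosome genes are more abundant than other tested genes, and rare genes carry more counting noise. Among genes of at least 50 CPM the lowest pair held in 12 of 20 members, or 60%, against 16.6% of 3791 genes, and the highest pair in 8 of 20, or 40%, against 16.0%. The spread itself was only slightly above that of other abundant genes: the median SD of log2 CPM for these 20 members was 0.150 within the SOX10 group and 0.181 within the controls, against 0.127 and 0.151. Among the 6 tested membrane proteins 5 (CD63, CD68, LAMP1, NPC1 and SCARB2) were highest in SOX10 replicate 1 and control replicate 3, though the SOX10 libraries of LAMP1 lay within 125 to 128 CPM. Of the 5 pump genes only ATP6V1B2 was so. Further lists of the lysosome machinery varied. This pattern held for 14 of 36 other hydrolases, 8 of 26 other membrane proteins and 7 of 23 autophagy genes. It held for 2 of 13 other pump genes and 2 of 19 genes of the TFEB family and of mTORC1 at the lysosome. Of 24 genes for sorting and fusion, 2 showed it. Those last shares, 15.4%, 10.5% and 8.33%, were near or below the 14.3% of all tested genes.

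**Figure D3:**
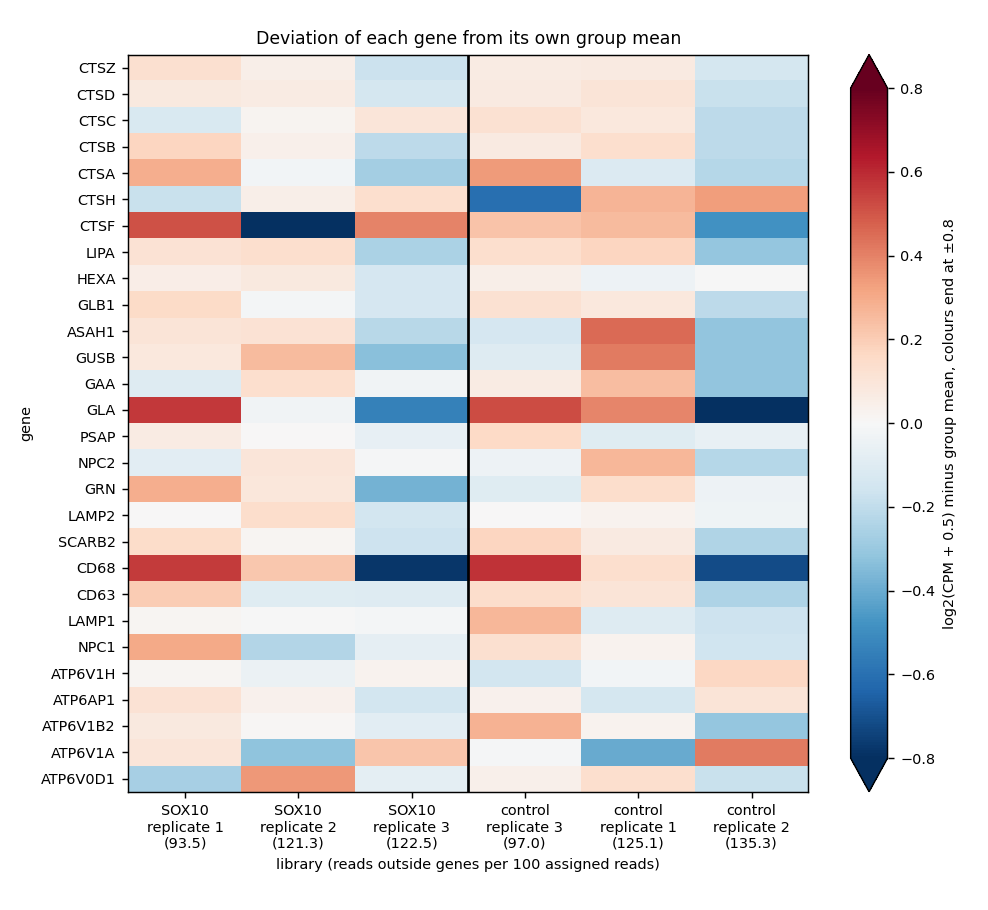
Deviation of log2(CPM + 0.5) of each tested lysosome gene (rows) from the mean of its own group, with libraries in columns ordered within each group by reads outside genes per 100 assigned reads (in brackets). SOX10 replicate 3 and control replicate 2 are blue in most rows, and GLA and CD68 have opposite colours at the ends of each group.

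SOX10 replicate 1 and control replicate 3 are also the libraries with the fewest reads outside genes. Within each group the members' share of assigned reads fell as reads outside genes rose. It was 0.719%, 0.688% and 0.605% in SOX10 replicates 1, 2 and 3. In control replicates 3, 1 and 2 it was 0.699%, 0.669% and 0.571%. The steps were uneven. Median deviations of the members from their group (log2) were 0.10 in SOX10 replicate 1 and 0.074 in control replicate 3. SOX10 replicates 2 and 3 had nearly equal reads outside genes, 121 and 122 per 100 assigned reads, but median deviations of 0.035 and -0.13. Control replicate 1, at 125, deviated by 0.095, and control replicate 2, at 135, by -0.21. The log2 ratio of reads outside genes to assigned reads was tested as a term beside the group in the edgeR fit, a test added after the values were seen. It rests on the libraries just singled out and restates their pattern in part, so its counts are a description and no separate support. A negative slope, meaning a higher level where fewer reads lay outside genes, was found for 22 of the 28, or 78.6%, beside 49.5% of all tested genes. At an adjusted p under 0.05 the term called 2 of the 28, beside 1.11% of all tested genes, and at an unadjusted p under 0.05 it called 7, beside 11.1%. CD68 had a slope of -2.15 (SE 0.36, log2 CPM per doubling of the ratio) with an adjusted p of 0.000566, and CTSA -1.18 (SE 0.27) with 0.0173. The slopes kept their sign and, for most settings, their size, but the calls did not all hold. With DESeq2 the slope was -2.17 for CD68 and -1.17 for CTSA, and the adjusted p 0.430 and 0.0986. Without single libraries the slopes ran from -2.70 to -1.67 for CD68 and from -1.30 to -1.03 for CTSA. Without SOX10 replicate 1 the adjusted p was 0.190 and 0.556, without control replicate 3 it was 0.241 and 0.404, and without control replicate 2 it was 0.164 and 0.149. CTSA was also not called without SOX10 replicate 3, at 0.133, with the replicate number as a block, at 0.0864, or after thinning to equal depth, at 0.184. Leaving out SOX10 replicate 1 and control replicate 3 together leaves ratios of 121 to 135 per 100. CD68 then had a slope of -8.85 (edgeR adjusted p = 5.34e-05) and CTSA -1.51 (0.955). That fit had hardly more libraries than fitted terms, and its SOX10 libraries had nearly equal ratios, 121 and 122. It therefore cannot show whether the CD68 slope stands without the pair. GLA, with a slope of -2.12 (SE 0.60), had an adjusted p of 0.0778. With this term in the fit the comparison of SOX10 with control still called 0 lysosome genes. What set the share of reads outside genes was not tested.

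**Figure D4:**
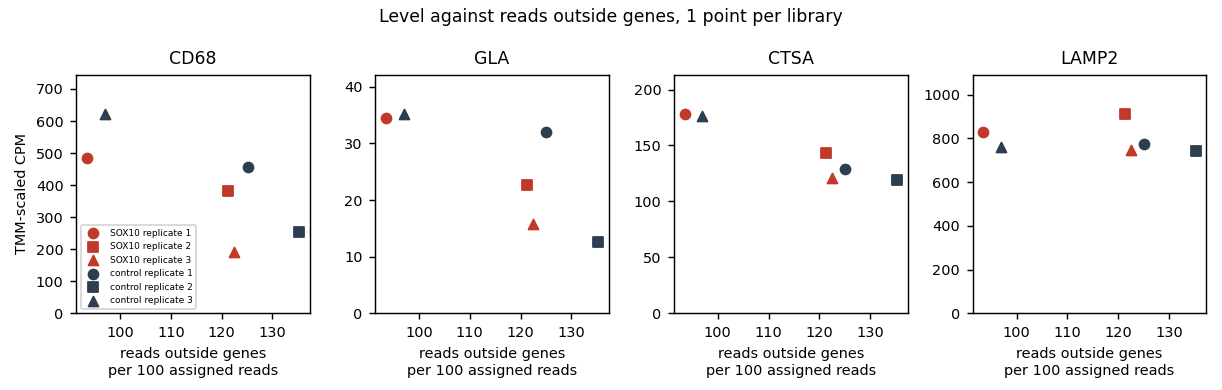
TMM-scaled CPM of CD68, GLA, CTSA and, for contrast, LAMP2 against reads outside genes per 100 assigned reads, 1 point per library, with SOX10 libraries in red and controls in dark blue. The libraries at 93.5 and 97.0 are the highest for CTSA in either group, while LAMP2 lies between 740.5 and 910.2 CPM throughout; these 4 genes were picked after their values were seen.

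The remaining lysosome machinery was described with 6 further lists of 163 genes in all. Of these 141 were tested, and edgeR, DESeq2 and limma-voom each called 0. At an unadjusted p under 0.05 edgeR found 11, with 5 higher and 6 lower. That is 7.80%, near the 6.23% of all tested genes. Of 36 other hydrolases tested 3 were higher and 2 lower at that level, or 13.9%. AGA, which cleaves the bond between sugar and asparagine, stood at 12.1, 19.9 and 18.7 CPM against 5.53, 12.7 and 9.75 CPM. Its log2 fold change was 0.83 (SE 0.34, edgeR adjusted p = 0.689). FUCA1, the lysosomal fucosidase, stood at 17.4, 14.8 and 9.93 CPM against 7.74, 9.23 and 6.83 CPM. Its groups did not overlap, and the log2 fold change was 0.85 (SE 0.36) with an adjusted p of 0.725. Of 26 other membrane proteins and 13 other pump genes 0 reached an unadjusted p under 0.05. MCOLN2, a relative of MCOLN1, stood at 21.2, 14.8 and 20.6 CPM against 9.95, 11.5 and 15.1 CPM, with 0.57 (SE 0.29). The amino acid exporter SLC36A1 stood at 36.2, 36.7 and 53.0 CPM against 64.1, 42.7 and 56.1 CPM, with -0.37 (SE 0.20). In both the groups overlapped. The pump subunit ATP6V1F stood at 70.7, 69.4 and 72.2 CPM against 57.5, 57.7 and 59.5 CPM, with 0.28 (SE 0.15) and an edgeR adjusted p of 0.846. Its groups lay apart, each within a narrow range. ATP6V0E2, a subunit of the membrane sector, stood at 20.4, 17.2 and 17.9 CPM against 7.74, 18.5 and 13.2 CPM, with 0.50 (SE 0.29).

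The transcription factors that act on the CLEAR element were unequal in abundance. TFE3 stood at 83.6, 69.8 and 64.7 CPM against 77.4, 83.0 and 88.3 CPM. Its groups overlapped, and the log2 fold change was -0.20 (SE 0.15, edgeR adjusted p = 0.923). MITF stood at 5.09, 5.19 and 4.12 CPM against 4.42, 4.61 and 8.78 CPM. Its log2 fold change of -0.44 (SE 0.46) rested on control replicate 3 and was 0.078 without it. TFEB was too rare for a test, at 0 to 2.21 CPM. FNIP1, a partner of folliculin in the control of TFEB and TFE3 at the lysosome, stood at 264, 315 and 284 CPM against 369, 366 and 363 CPM. The 3 controls lay close together above all SOX10 libraries, and the log2 fold change was -0.35 (SE 0.10), but the adjusted p was 0.354. TSC1, an inhibitor of mTORC1, stood at 60.3, 65.8 and 63.7 CPM against 75.2, 78.4 and 67.3 CPM. Its groups did not overlap, and the log2 fold change was -0.20 (SE 0.15, edgeR adjusted p = 0.917). In all, 19 genes of this list were tested and 1, FNIP1, had an unadjusted p under 0.05. That is 5.26%, beside 6.23% of all tested genes.

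Of 24 tested genes for sorting and fusion 2 were lower at an unadjusted p under 0.05, or 8.33%, beside 6.23% of all tested genes. LYST, whose loss gives the giant lysosomes and pale pigment of Chediak-Higashi syndrome, stood at 33.2, 40.7 and 38.5 CPM with SOX10 and 53.1, 65.7 and 68.3 CPM in the controls. Every control library was above every SOX10 library, and the log2 fold change was -0.76 (SE 0.17, edgeR adjusted p = 0.125). Over the alternatives its log2 fold change ran from -0.85 to -0.59 and its adjusted p from 0.0333 to 0.699. It was called only with reads outside genes as a covariate and, at 0.0492, with no filter on low counts. GGA3, an adaptor that carries mannose 6-phosphate receptors, stood at 33.5, 34.7 and 31.5 CPM against 47.5, 58.8 and 41.9 CPM, with -0.55 (SE 0.19) and an adjusted p of 0.526. Of 23 autophagy genes 2 were higher and 1 lower at that level. SQSTM1, the autophagy receptor p62, stood at 809.5, 844 and 624 CPM against 979.6, 799 and 963 CPM, with -0.27 (SE 0.11) and an edgeR adjusted p of 0.689. GABARAPL1, an ATG8 protein of the autophagosome, stood at 54.9, 50.3 and 32.7 CPM against 32.1, 19.6 and 38.0 CPM, with 0.54 (SE 0.24) and 0.75. The groups overlapped in both.

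**Figure D5:**
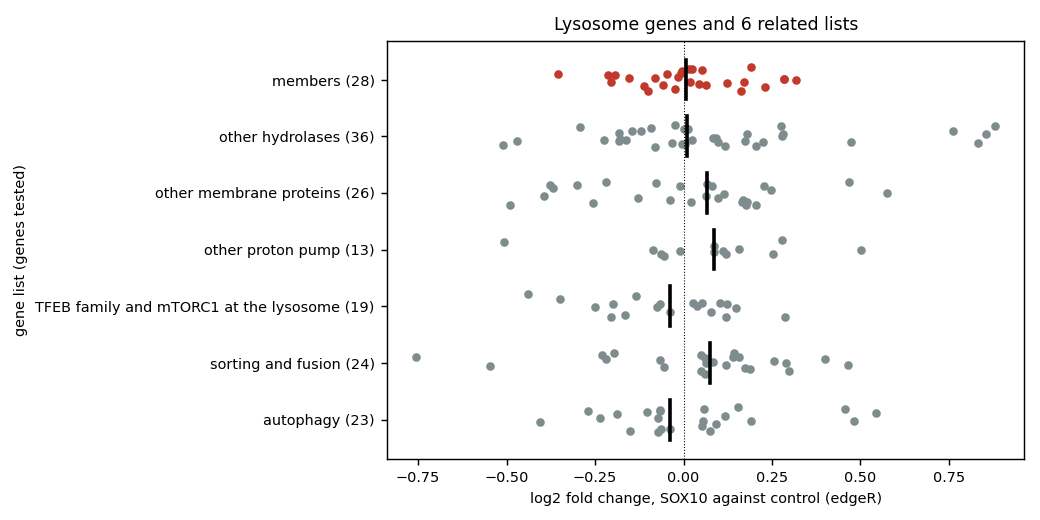
Log2 fold change of SOX10 against control libraries (edgeR) for the tested genes of the 30 lysosome genes (red) and of 6 further lists (grey), 1 point per gene, with a black bar at each median. The medians lie between -0.039 and 0.086, and the lowest point is LYST at -0.76.

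The term of reads outside genes, tested in the same fit, called 4 of the 141, beside 1.11% of all tested genes. At an unadjusted p under 0.05 edgeR found 16 of the 141 for this term, beside 11.1% of all tested genes. The 4 were named after their values were seen, and their slopes under the alternatives are not given here. The cathepsin CTSS had a slope of -3.48 (SE 0.74), the asparaginyl protease LGMN -1.29 (SE 0.26), LAMP3, a LAMP family protein of dendritic cells, -3.36 (SE 0.57) and the autophagy receptor OPTN -1.19 (SE 0.27).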

How the data were processed

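The authors deposited a table of raw read counts, with genes by symbol and libraries in columns. Libraries were built with the NuGEN Encore Complete system from total RNA, per the labels' protocols. TopHat 1.4.0, HTSeq, DESeq and hg19 appear in the submitters' processing notes. Annotation, strand setting and overlap mode of the counting were not stated there. The 5 class lines of the counter entered neither library sizes nor tests, and the line for reads outside genes gave the ratio used above.

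Columns were matched to samples by title and to groups by the treatment label. In each group all pairs of libraries differed beyond sampling noise (chi-square per degree of freedom 1.98 to 6.50). Groups were compared with edgeR 4.0.16 (R 4.3.3), by its quasi-likelihood test, on all 6 libraries, with TMM, filterByExpr (minimum count 10, total 15), no covariate and Benjamini-Hochberg adjustment over 10678 genes. Standard errors come from the F statistic. Its code was tested on simulated data. Alternatives were other scalings and filters, thinning, DESeq2 1.42.0, limma-voom (limma 3.58.1), the replicate block, reads outside genes as a covariate and leaving out libraries. Deviations within groups used log2(CPM + 0.5).

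The members and lists were chosen with earlier results of these data known. All members are named. Full values were given for the smallest p and the highest and lowest level per length in each role and for groups that do not overlap, and from other lists for the 2 genes of smallest p. CD68, CTSA and GLA were added after their values were seen. Lengths and overlaps come from GENCODE release 29 (GRCh38) and promoter windows from RefSeq (GRCh38.p14, 21 of 30 members matched), a build other than hg19.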

Additional observations from a re-analysis of the deposited data

How the results depend on the processing

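The count of called lysosome genes was 0 in each direction under all 17 alternatives, those without a single library included. The lowest adjusted p of a member in any of them was 0.171. The median log2 fold change of the tested members ran from -0.052 to 0.12 without single libraries, within the spread of 0.16 between libraries. Over all genes, edgeR called 1 higher and 11 lower. The higher calls became 2 with library totals, 13 with no filter and 9 with reads outside genes as a covariate, and 1 to 4 without single libraries. Lower calls became 7 with upper quartile scaling, 35 with no filter, 7 with limma-voom, 6 with the replicate block, 34 with reads outside genes as a covariate, 6 without SOX10 replicate 1 and control replicate 3, and 5 to 16 without single libraries. Of the further lists 1 gene, LYST, was called lower with no filter and 1 with the covariate. The replicate numbers did not pair the libraries, as same-numbered libraries had correlations of -0.027, -0.032 and -0.13, none correlated best with its own number, and the replicate block changed no call of a member. The term of reads outside genes called 2 members, which became 0 with DESeq2, 1 with the replicate block, 1 after thinning, 1 without SOX10 replicate 1 and control replicate 3, and 0 to 3 without single libraries.

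No log2 fold change of a member was called in any fit, and 15 members changed sign in at least 1. All of these were 0.21 or smaller in size with edgeR, and the cause was not tested. The reversed values were -0.012 with limma-voom and -0.037 with the covariate for CTSA, 0.019 with upper quartile scaling and 0.024 with no filter for CTSD, 0.038 with limma-voom and 0.028 after thinning for CTSH, and -0.014 with the covariate, -0.00600 after thinning and -0.019 without SOX10 replicate 1 and control replicate 3 for CTSZ. LIPA had 0.00096 with library totals, 0.023 with upper quartile scaling, 0.028 with no filter, 0.060 after thinning and 0.0029 without that pair. ASAH1 had 0.012 with upper quartile scaling, 0.016 with no filter and 0.010 with limma-voom, GRN 0.027 after thinning, LAMP1 0.063 and ATP6V0D1 0.038 without that pair, ATP6V1B2 -0.00601 with limma-voom and -0.0033 with the covariate, and ATP6AP1 0.0032 with upper quartile scaling and 0.0062 with no filter. Without single libraries, values ran from -0.13 to 0.21 for ASAH1, -0.090 to 0.051 for ATP6AP1, -0.29 to 0.015 for ATP6V0D1, -0.10 to 0.21 for ATP6V1B2, -0.14 to 0.25 for CTSA, -0.086 to 0.060 for CTSD, -0.43 to 0.095 for CTSH, -0.051 to 0.099 for CTSZ, -0.57 to 0.11 for GLA, -0.034 to 0.13 for GLB1, -0.21 to 0.13 for GRN, -0.094 to 0.0065 for HEXA, -0.18 to 0.076 for LAMP1, -0.13 to 0.11 for LIPA, -0.062 to 0.14 for SCARB2 and -0.59 to 0.078 for MITF.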
